A study of Mus musculus with 2 samples.

Results

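Transporters that carry amino acids and neurotransmitters across the plasma membrane and into synaptic vesicles were described in the hippocampus of mice with 5/6Nx and of sham mice. They were taken by name, as the non-control probes whose gene name begins with Slc1a, Slc3a, Slc6a, Slc7a, Slc17a, Slc18a, Slc32a, Slc36a, Slc38a or Slc43a. The rule took 104 probes in 122 spots of each array, for 76 of the 34741 genes and transcripts named on the array. One of the 76, Slc7a6os, is a protein-coding gene named for lying opposite Slc7a6 and is no transporter, which leaves 75. It stays in the counts of members below, which are called transporters for short. Some carriers of the Slc17 family move phosphate, organic anions, sialic acid or nucleotides and fall under the rule through their names.

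Both groups were ICR mice, an outbred laboratory strain, and the hippocampus was taken 8 weeks after surgery. 5/6Nx is the usual short form of 5/6 nephrectomy, an operation that takes away most kidney tissue to model chronic kidney disease, and sham mice had the control operation. Each group had 1 array, hybridised with Cy3-labelled cRNA from total RNA. The sources used here do not give the number, age or sex of the animals behind an array, or how the hippocampus was dissected.

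Solute carriers of these families end a synaptic signal by taking the transmitter back up, load vesicles with it, and supply cells with the amino acids from which transmitters, proteins and glutathione are made. In the hippocampus astrocytes take up most synaptic glutamate, and glutamine returned from astrocytes through sodium-coupled carriers is turned back into transmitter in neurons. Several carriers also serve the barriers of the brain, at the endothelium, the choroid plexus and the leptomeninges.

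Of the 76 genes, 59 had a probe well above background on both arrays, 3 on the sham array only and 14 on neither. The 14 were Slc6a2, Slc6a5, Slc6a14, Slc6a18, Slc6a19, Slc6a20b, Slc7a9, Slc7a12, Slc7a13, Slc7a15, Slc17a1, Slc17a2, Slc17a4 and Slc18a1. Among them are the plasma membrane carriers of noradrenaline (Slc6a2) and of glycine at glycinergic terminals (Slc6a5), both at home in other brain regions, and several carriers known from kidney and gut. A gene is given by its brightest probe. Its level is its log2 intensity minus that of the 75th percentile of the same array, and its difference is the level in 5/6Nx minus the level in sham. With 1 array a group there was no test and no overlap to judge, so measured genes are called higher or lower from 2-fold on, which is a size. A gene above background on 1 array has only a bound, given as its least fold. The error beside a difference is that of the scanner software's spot model. It is set at no less than 10% of the signal on each array, which makes 0.20 for bright probes, and leaves out the variation between animals.

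Of the 59 genes, 4 were higher in 5/6Nx by 2-fold or more and 8 were lower by as much. The higher ones were Slc17a9, Slc6a3, Slc6a6 and Slc7a8, and the lower ones Slc6a12, Slc6a13, Slc7a3, Slc38a5, Slc36a2, Slc17a6, Slc38a4 and Slc7a11. Over all 25917 measured genes and transcripts 4.61% were higher by 2-fold or more and 3.48% lower, together 8.09%, against 20.3% of the 59. Among the 17518 measured genes with a symbol in the RefSeq table, 4% were higher and 4.25% lower, together 8.24%. Of the 12 transporter genes past 2-fold only 5 lay above the median signal (Slc6a6, Slc7a8, Slc6a13, Slc7a3 and Slc38a5), out of 36 members there, and above that signal 4.82% of all measured genes passed 2-fold, 2.3% higher and 2.52% lower. The median difference was 0.03 for the transporters and 0.03 for all measured genes. Below 0 lay 28 of the 59 and 12269 of the 25917. The SD was 0.95 for the transporters against 0.60 for all measured genes. The lower quartile of the transporters lay farther out, at -0.53 against -0.26, and their upper quartile lay lower, at 0.25 against 0.32. Of the 59 members 41 lay within 1.5-fold, 5 beyond it above 0 and 13, Slc7a6os among them, beyond it below 0. Of all measured genes 22.3% lay beyond it.

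**Figure D1:**
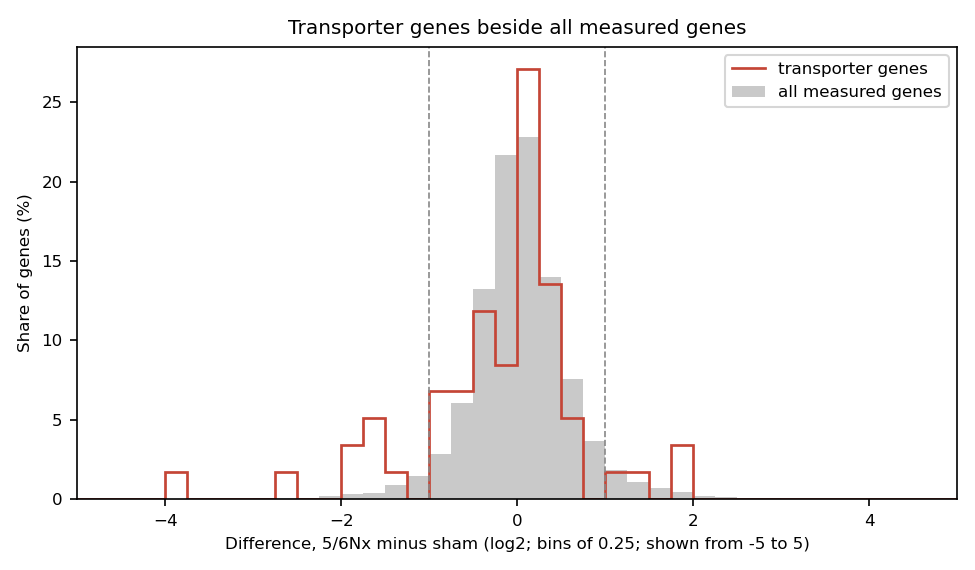
Share of genes (vertical axis, percent) by difference between 5/6Nx and sham (horizontal axis, log2), for all 25917 measured genes (grey bars) and for the 59 measured transporter genes (red outline); dashed lines mark 2-fold. Both peak near 0, and the transporters have 8 genes beyond the left line and 4 beyond the right.

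**Figure D2:**
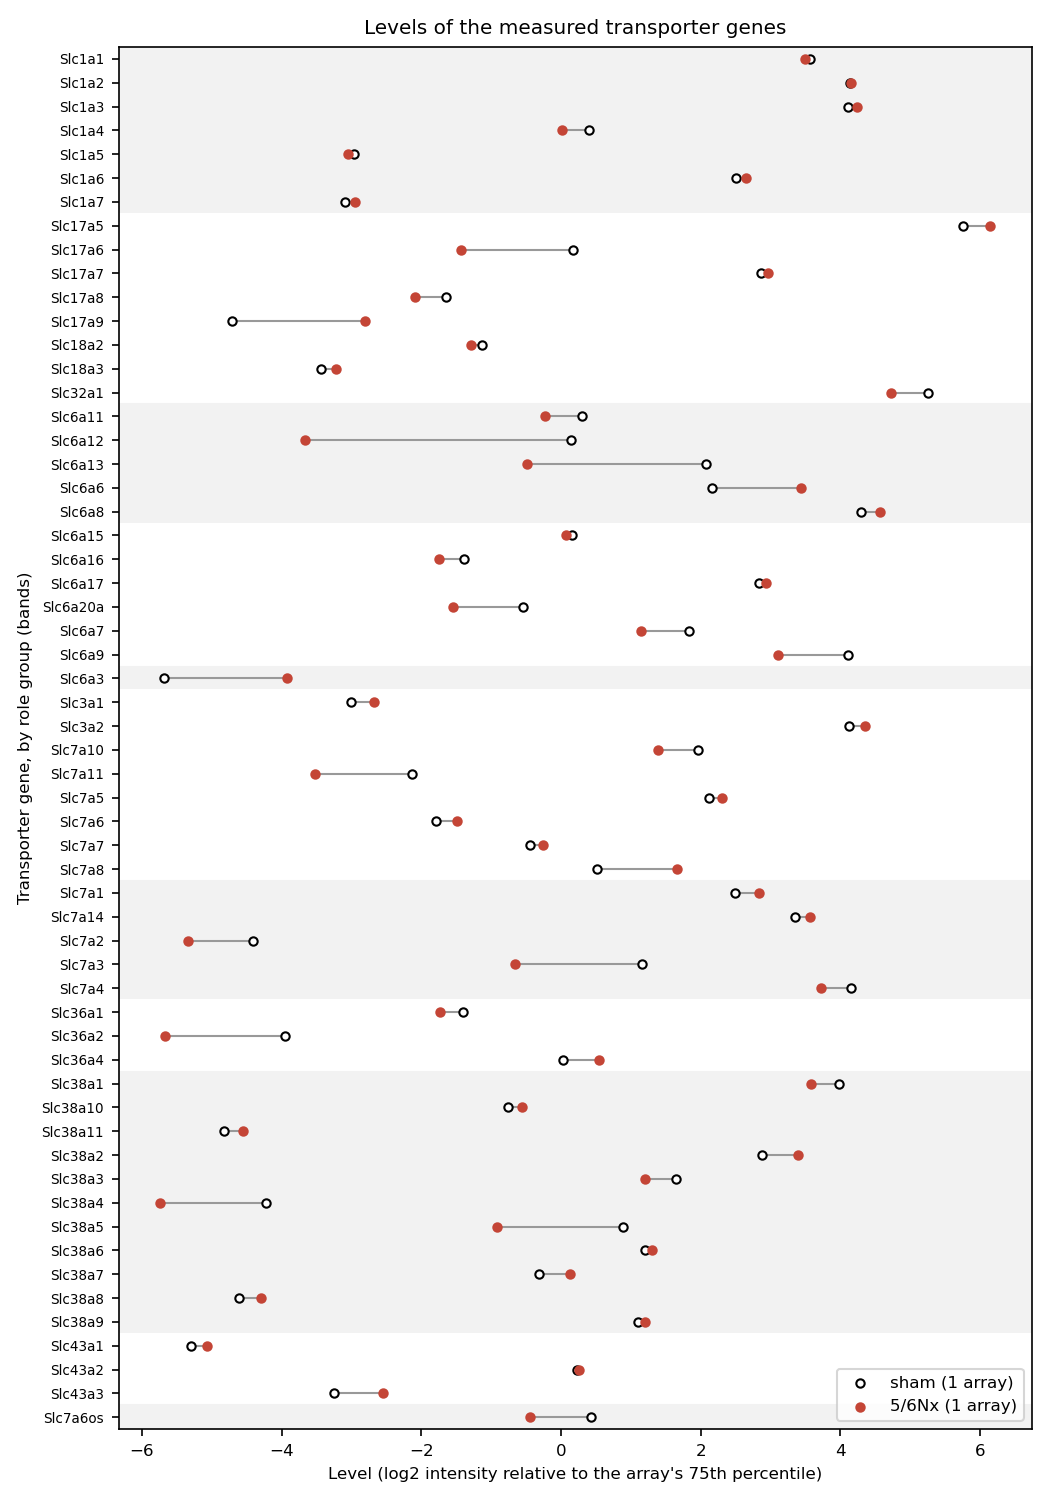
Level of the measured transporter genes, 1 of which is not shown (log2 intensity relative to the array's 75th percentile) in the sham sample (open circles) and the 5/6Nx sample (red), 1 array each, with genes grouped by role in shaded bands. Levels of different genes come from different probes and are not comparable with each other; the longest line joins the values of Slc6a12, 0.14 in sham and -3.67 in 5/6Nx.

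The carriers of GABA, betaine, taurine and creatine held the lowest members and 1 of the 4 higher ones. Slc6a12 encodes the betaine and GABA transporter BGT1. Its probe lies at chr6:121315541-121315600 (mm9) and gave a signal of 1428 in sham and 90.2 in 5/6Nx. The sham sample was the high one, and 5/6Nx was 14.03-fold lower, a difference of -3.81 ± 0.21. With normexp background correction the difference was -3.07, and with no background subtraction -2.96. Slc6a13 encodes GAT2, a GABA and taurine carrier found in leptomeninges, liver and kidney. Its signal was 5450 in sham and 819.8 in 5/6Nx (probe at chr6:121287597-121287656, mm9), so it was 5.90-fold lower (-2.56 ± 0.20). Slc6a6 encodes the taurine transporter TauT and lay the other way. Its signal was 5791 in sham and 12336 in 5/6Nx, 2.40-fold higher in 5/6Nx (1.26 ± 0.20). Other carriers of the group lay within 2-fold. Slc6a11, the astrocytic GAT3, had 1584 and 979.9 (-0.52 ± 0.20). Slc6a8, which takes up creatine, had 25395 and 27143 (0.27 ± 0.20).

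Slc6a13 and Slc6a12 lie next to each other on chromosome 6 with no other protein-coding gene between them in the gene order of GRCm38.p6. Of the genes on either side, Usp18, beside Slc6a13, had a difference of -1.02 and Iqsec3, beside Slc6a12, one of -0.05. Because the 2 lowest transporter genes are neighbours, the 250 bases before their annotated starts are shown here, from the RefSeq table of GRCm38.p6, both on the plus strand, for the first of 3 windows listed for Slc6a13 (chr6:121300038-121300287) and the first of 5 for Slc6a12 (chr6:121342324-121342573). They are in lower case throughout, since neither holds the motif searched for below, and their G and C content is 60.8% and 55.6%.
Slc6a13: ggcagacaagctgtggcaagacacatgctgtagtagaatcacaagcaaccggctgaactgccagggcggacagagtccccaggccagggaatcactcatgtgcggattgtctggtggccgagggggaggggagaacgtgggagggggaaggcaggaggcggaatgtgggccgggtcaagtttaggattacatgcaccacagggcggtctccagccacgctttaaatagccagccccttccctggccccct
Slc6a12: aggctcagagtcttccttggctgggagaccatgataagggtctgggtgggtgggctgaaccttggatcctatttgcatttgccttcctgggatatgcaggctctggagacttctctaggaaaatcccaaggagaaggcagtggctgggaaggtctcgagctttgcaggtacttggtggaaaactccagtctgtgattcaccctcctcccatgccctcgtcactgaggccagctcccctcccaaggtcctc

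Markers of leptomeningeal fibroblasts, the cells of the membranes around the brain in which Slc6a13 is also made, moved with these genes. Of 12 measured markers 11 were at least 2-fold lower in 5/6Nx and all 12 lay below 0, with a median of -2.11. Their summed signal was 83906 in sham and 20838 in 5/6Nx, and among the lowest were the organic ion carriers Slc22a2 (-3.14) and Slc22a6 (-2.64). Slc47a1, the other marker on the list, was above background on 1 array only. Markers of blood cells were lower as well, with 8 of 9 measured markers past 2-fold, a median of -3.76 and summed signals of 306404 and 21628. Markers of the choroid plexus epithelium lay the other way. Of 17 measured, 16 passed 2-fold on the higher side. Their median was 2.46, with summed signals of 28763 in sham and 301723 in 5/6Nx, led by the transthyretin gene Ttr (6.63). The part of leptomeningeal, blood and choroid plexus tissue in the differences of Slc6a12, Slc6a13, Slc6a6 or any other transporter was not tested. In bulk tissue, fewer cells of a type and less RNA per cell cannot be told apart.

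The Slc1 family held no member at 2-fold. It comprises the plasma membrane carriers of glutamate and, with Slc1a4 and Slc1a5, of neutral amino acids. Slc1a2, the astrocytic glutamate transporter GLT1 that clears most synaptic glutamate, had signals of 22828 in sham and 20322 in 5/6Nx, a difference of 0.01 ± 0.20, and its other probes stood at 0.33 and 0.19. Slc1a3, the astrocytic GLAST, had 22357 and 21586 (0.12 ± 0.20). Slc1a1, the neuronal carrier EAAC1, was read by 10 spots on each array, with 15343 and 12875 (-0.08 ± 0.20), and the spots varied with an SD of 0.04 within each array. Slc1a6, a carrier best known from Purkinje cells, had 7325 and 7152 (0.14 ± 0.20). Another Slc1a2 probe, at 0.33 ± 0.20, lay beyond the error of the spot model. On their brightest probes the differences of these 4 carriers were smaller than that error. Their signs depend on the scaling, since with spike-in scaling Slc1a2 (-0.25), Slc1a3 (-0.14) and Slc1a6 (-0.12) lay below 0. Slc1a4, which exchanges alanine, serine and cysteine, had the largest difference of the family, with 1706 and 1152 (-0.39 ± 0.20). Slc1a5, or ASCT2, a glutamine carrier, stood at -0.08 with its other probe at 0.57, and Slc1a7 at 0.14.

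Of the transporters grouped here by the families that fill vesicles (Slc17, Slc18 and Slc32), 8 of 13 were measured, with 1 at least 2-fold higher and 1 lower. Slc17a6 encodes VGLUT2, the vesicular glutamate transporter of thalamus, hypothalamus and other subcortical neurons. Its signal was 1447 in sham and 422.2 in 5/6Nx, 3.04-fold lower in 5/6Nx (-1.60 ± 0.20). Slc17a7, or VGLUT1, which loads glutamate in the hippocampal pyramidal and granule cells, had 9398 and 8910 (0.10 ± 0.20). Slc17a8, or VGLUT3, had 412.9 and 268.6 (-0.45 ± 0.21). The other Slc17a8 probe, well above background in 5/6Nx only, had 18.4 and 24 (0.56 ± 0.51). Only the first of these 3 vesicular glutamate transporters was thus at 2-fold. Markers of thalamus and habenula had 0 of 9 measured members past 2-fold in either direction, with a median of -0.14 and a range from -0.89 to 0.61. Slc17a9, the vesicular nucleotide transporter that loads ATP, was dim, with 49.3 in sham and 163.1 in 5/6Nx, and 3.73-fold higher in 5/6Nx (1.90 ± 0.23). With normexp its difference was 1.21, and with no background subtraction 1.13. Slc17a5, the lysosomal sialic acid carrier, had 69619 and 81204 (0.40 ± 0.20), but its other probe stood at -0.09. Slc17a3 was above background in sham only, at 18.9 against 16.9, and no fold can be given.

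Slc32a1 encodes the vesicular GABA and glycine transporter VGAT, which all inhibitory terminals use. Its signal was 49128 in sham and 30150.3 in 5/6Nx (-0.53 ± 0.20), and its other probe stood at -0.33. Markers of GABAergic interneurons lay in the same range, with a median of -0.53 over 16 measured genes, 14 of them below 0 and 3 at least 2-fold lower. The GABA-synthesising enzymes Gad1 (-0.44) and Gad2 (-0.56) are among the 16. The lowest of the 16 were Cort (-1.20), Tac1 (-1.19) and Pvalb (-1.06), and the 2 above 0 were Lhx6 (0.36) and Dlx6 (0.17).

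Of the monoamine carriers of the plasma membrane, those of dopamine and serotonin had signals close to background. Slc6a3, the dopamine transporter, was the only one of 3 plasma membrane monoamine carriers above background on both arrays. Its signal was 25.03 in sham and 75.8 in 5/6Nx, 3.42-fold higher in 5/6Nx (1.77 ± 0.34), where the lowest signals called above background were 17.9 and 18.8. Slc6a4, the serotonin transporter, was above background in sham only, at 30.9 against 16.2, and was at least 1.46-fold lower in 5/6Nx. Slc18a2, or VMAT2, which fills monoamine vesicles, had 587.4 and 466.4 (-0.16 ± 0.20), and its other probe, which overlaps the first, was not well above background. Slc18a3, the vesicular acetylcholine transporter, had 119.2 and 122.7 (0.21 ± 0.22). These genes are made in cell bodies of brainstem, midbrain and septum, whose axons reach the hippocampus. Of 9 markers of monoamine neurons 6 were measured, with a median of 0.31. The synthesis enzymes among them stood at 1.09 (Dbh), 0.81 (Ddc) and -0.12 (Th), the transcription factors of serotonin neurons Fev and Gata2 at 0.34 and 0.27, and the vesicle protein gene Slc10a4 at -0.41. Tph2, the enzyme of serotonin synthesis, was above background in sham only, as Slc6a4 was. So was Gata3, a further transcription factor of serotonin neurons on the list, at 30.9 in sham against 10.55 in 5/6Nx. The remaining marker, En1, was not above background.

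Carriers of glycine, proline and other neutral amino acids in the Slc6 family had 6 of 11 members measured and none at 2-fold, although 2 lay just short of it. Slc6a9, or GlyT1, which holds down glycine around glutamate receptors, had signals of 22189 in sham and 9860 in 5/6Nx, a difference of -0.997 ± 0.20. Its other probe, which overlaps the first, had 17392 and 7570 (-1.03). The differences of both probes were thus below 0, on either side of the threshold. Slc6a20a, a carrier of proline and other imino acids, had 885.7 and 393.0 (-0.999 ± 0.20), and its near copy Slc6a20b was not above background. The genes flanking this pair, Sacm1l (-0.86) and Lztfl1 (-0.83), lay below 0, as did 12269 of all 25917 measured genes and transcripts. Slc6a7, the neuronal proline transporter, stood at -0.68 and Slc6a16 at -0.36, whereas Slc6a15 (-0.09) and Slc6a17 (0.09), carriers of neutral amino acids in neurons, lay near 0.

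The heteromeric exchangers pair a light chain with one of the Slc3 heavy chains. Of 12 genes 8 were measured, 1 higher and 1 lower at 2-fold. The heavy chain Slc3a2, or CD98, had 22590 in sham and 23290 in 5/6Nx (0.22 ± 0.20), and the heavy chain Slc3a1 stood at 0.33. Of its light chains, Slc7a8, or LAT2, an exchanger of neutral amino acids, was read by 10 spots on each array. Its mean signal was 1848 in sham and 3635 in 5/6Nx, 2.22-fold higher in 5/6Nx (1.15 ± 0.20). The SD over spots was 0.04 on each array and covers only repeats within an array. Slc7a11 encodes xCT, which takes up cystine for glutathione synthesis in exchange for glutamate. Its signal was 293.6 in sham and 99.8 in 5/6Nx, 2.61-fold lower in 5/6Nx (-1.38 ± 0.21). Slc7a5, or LAT1, the carrier of large neutral amino acids at the blood-brain barrier, stood at 0.18, with its other probe at 0.40. Slc7a10, the D-serine and alanine exchanger of astrocytes, stood at -0.57, and Slc7a6 (0.30) and Slc7a7 (0.18), which exchange cationic for neutral amino acids, lay within 2-fold.

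Carriers of cationic amino acids had 5 of 5 members measured. Slc7a3, or CAT3, an arginine and lysine carrier of neurons, had 2897 in sham and 723.8 in 5/6Nx, 3.55-fold lower in 5/6Nx (-1.83 ± 0.20). Its relative Slc7a1, or CAT1, stood at 0.33, Slc7a2 at -0.93 with a dim probe (61.0 and 28.3), Slc7a4 at -0.43 and Slc7a14 at 0.22. Only the first of these 5 was at 2-fold.

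Genes of the response to amino acid shortage were set beside the exchangers, since Slc7a11, Slc7a3, Slc7a5, Slc3a2, Slc7a1, Slc6a9 and Slc38a2 are known as its targets. In that response the transcription factor ATF4 binds a composite site in or near its target genes. The list outside the transporters held 25 measured genes, with 1 at least 2-fold higher (Ddit4, 1.29), 1 lower (Trib3, -1.12), 17 below 0 and a median of -0.14. Atf4 itself stood at -0.33 and the asparagine synthetase gene Asns at -0.33. The core letters TGATGCAA of the composite site were searched on both strands in the 250 bases before each annotated start in the RefSeq table of GRCm38.p6. They were found in 0.791% of all 32851 windows and in 3 of the 79 windows of 55 transporter genes, 1 each for Slc7a11, Slc7a7 and Slc17a1. The windows of the measured genes Slc7a11 (chr3:50443614-50443863, minus strand) and Slc7a7 (chr14:54417703-54417952, minus strand) are shown because both hold the motif, in capitals on either strand, while their differences were -1.38 and 0.18.
Slc7a11: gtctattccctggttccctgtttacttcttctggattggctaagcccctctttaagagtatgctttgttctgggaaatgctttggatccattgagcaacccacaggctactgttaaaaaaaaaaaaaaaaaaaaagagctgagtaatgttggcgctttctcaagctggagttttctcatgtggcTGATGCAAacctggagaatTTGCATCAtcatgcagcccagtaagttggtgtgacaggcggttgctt
Slc7a7: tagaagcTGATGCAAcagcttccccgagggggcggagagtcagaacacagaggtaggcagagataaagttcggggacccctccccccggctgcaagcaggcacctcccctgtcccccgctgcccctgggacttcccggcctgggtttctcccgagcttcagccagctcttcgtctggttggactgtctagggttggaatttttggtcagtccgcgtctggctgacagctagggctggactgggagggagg

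The window of Slc7a11 holds the motif once on each strand, starting 66 and 47 bases before the annotated start. That of Slc7a7 holds it once, 243 bases before the start of this window's transcript. For Slc7a7 there are 5 windows, and only the window shown holds the motif. A match of letters is a description of the window and not evidence of binding.

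The sodium-coupled carriers of neutral amino acids (Slc38) had 11 of 11 members measured, 2 of them at least 2-fold lower and none higher. Slc38a5, or SNAT5, which moves glutamine, serine and glycine, had 2387 in sham and 606.0 in 5/6Nx, 3.49-fold lower in 5/6Nx (-1.80 ± 0.20, probe at chrX:7857241-7857300, mm9). Slc38a4, a carrier best known from liver, was dim, with 69.0 and 21.4 (-1.51 ± 0.34). Slc38a1, Slc38a2 and Slc38a3, which also carry glutamine in brain, lay within 2-fold. Slc38a3, or SNAT3, through which astrocytes release glutamine, stood at -0.44, and Slc38a2, or SNAT2, a neuronal carrier, at 0.51. The other members, Slc38a6 to Slc38a11, lay between 0.09 and 0.44. Slc38a1, or SNAT1, of neurons had 20454 and 13714 on its brightest probe (-0.40 ± 0.20), but its other probes stood at 0.51 and 0.31. No direction can therefore be given for Slc38a1. Slc38a1, Slc38a2 and Slc38a4 follow one another on chromosome 15 and had differences of -0.40, 0.51 and -1.51 on their brightest probes.

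Of the proton-coupled carriers Slc36a2, which carries glycine and proline, had a dim signal of 83.1 in sham and 22.4 in 5/6Nx (-1.72 ± 0.34). Its neighbours on chromosome 11 are Slc36a3, above background in sham only (23.1 against 10.3, at least 1.09-fold lower), and Slc36a1, the lysosomal PAT1, at -0.33. Slc36a4 stood at 0.51 and its other probe at 0.88. The 3 members of the Slc43 family lay within 2-fold, with Slc43a3 at 0.70, Slc43a1 at 0.22 and Slc43a2 at 0.03. The gene Slc7a6os had 1741 and 843.6 (-0.87 ± 0.20), against 0.30 for Slc7a6, which lies beside it. Whether the labelling kept strands apart for these probes was not tested.

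**Figure D3:**
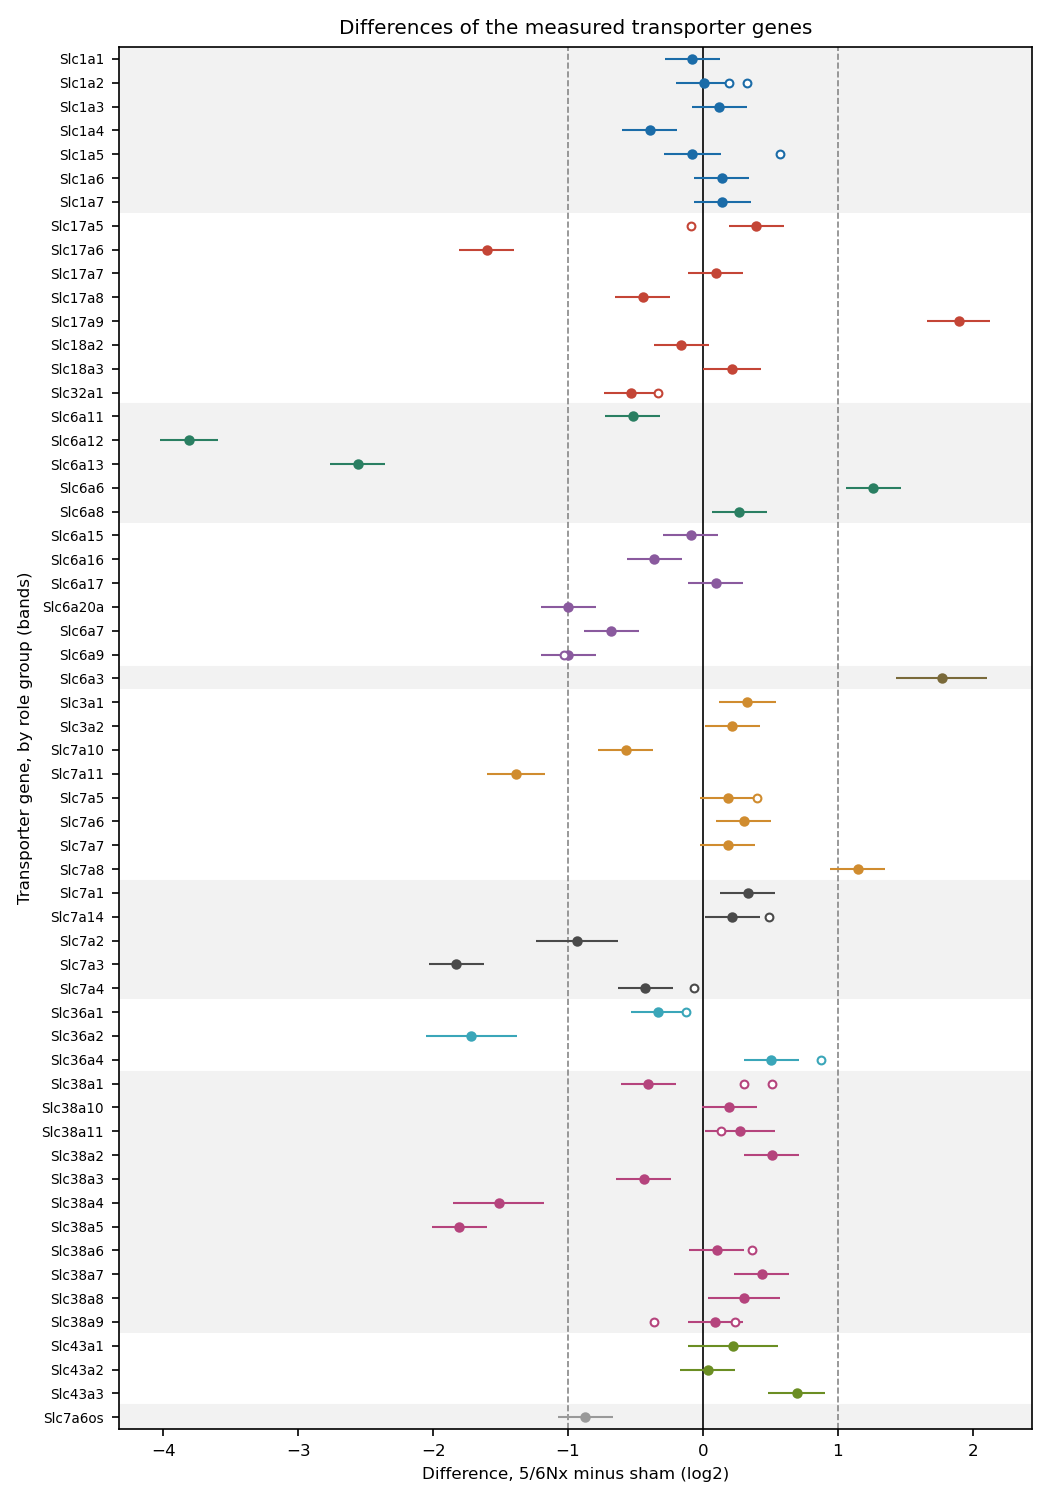
Difference of the measured transporter genes, 1 of which is not shown, 5/6Nx minus sham (log2), with the error of the scanner's spot model as bars; open circles are further probes of the gene that were well above background on both arrays, bands group genes by role, and dashed lines mark 2-fold. Slc6a12 (-3.81) and Slc6a13 (-2.56) lie farthest out, and open circles on the other side of 0 show genes, such as Slc38a1, whose probes differed in direction.

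Of the 59 genes 15 had several probes above background on both arrays, and in some of them, among which were Slc1a5, Slc17a5, Slc38a1 and Slc38a9, the probes differed in direction. The gap between probes of a gene had a median of 0.32 and was largest in Slc38a1 at 0.91. All of the 12 genes past 2-fold had 1 measured probe, so none of them had a further probe to compare.

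The enzymes that make and break down the same transmitters were described from lists. Glutamate and GABA metabolism had 17 of 17 genes measured, 0 of them past 2-fold, 14 below 0 and a median of -0.26, with the alanine aminotransferase gene Gpt at -0.97 and the proline dehydrogenase gene Prodh at 0.81. Gad1 and Gad2 are on this list and also among the markers of GABAergic interneurons. Creatine and taurine synthesis had 8 of 8 measured, with a median of -0.56 and 1 lower at 2-fold. This was Gamt, the last enzyme of creatine synthesis, at -1.61, and Gatm, the enzyme before it, stood at -0.77, while the creatine carrier Slc6a8 was at 0.27. The cysteine sulfinate decarboxylase gene Csad of taurine synthesis stood at 0.38. Enzymes of monoamines and acetylcholine had 14 of 16 measured with a median of -0.09, Bche at -1.59 and Dbh at 1.09.

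Among the cells that make the carriers, hippocampal markers were present on both arrays. All 9 markers of CA1 pyramidal cells and all 10 of dentate granule cells were measured, with medians of -0.43 and 0.34, as were 9 of 10 of CA2 and CA3 (0.39). Markers of astrocytes, which make Slc1a2, Slc1a3, Slc6a11 and Slc7a10, had a median of -0.16 over 12 genes. Markers of endothelium, which makes Slc7a5, had 0.07 over 13, those of oligodendrocytes -0.35 over 12 and those of microglia -0.41 over 11. The share of well above background spots was 72.7% in sham and 72.5% in 5/6Nx, no spot was saturated, and no transporter spot was an outlier.

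**Figure D4:**
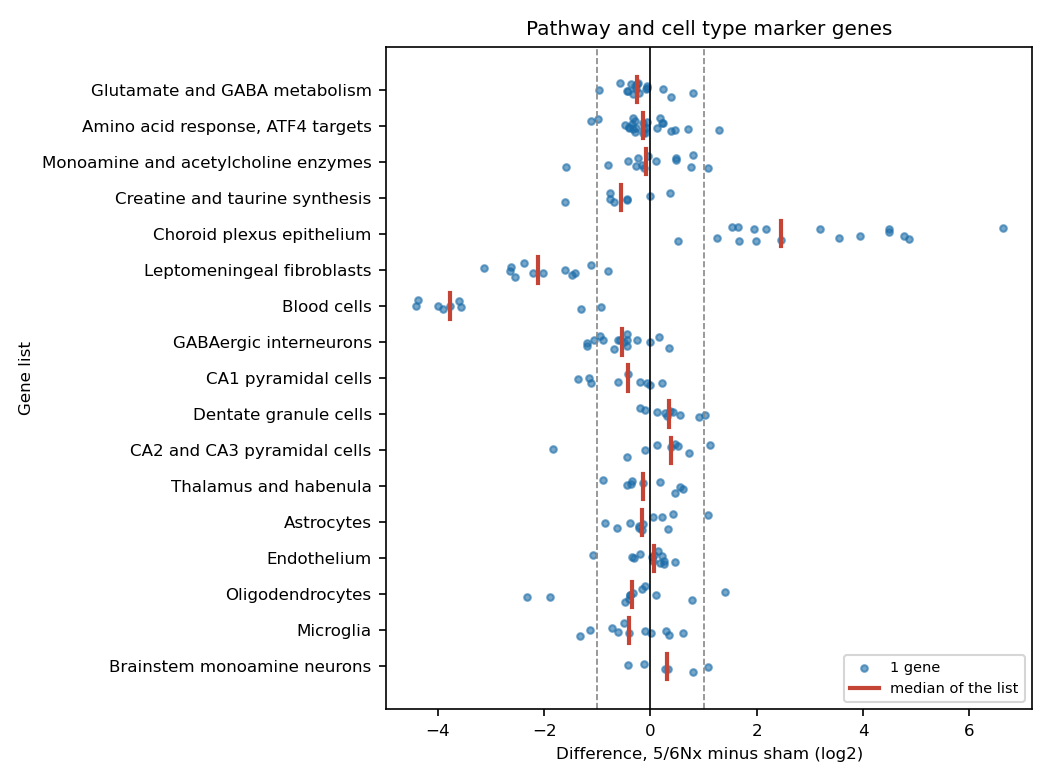
Difference of each measured gene of the 4 pathway lists and 13 cell type marker lists, 5/6Nx minus sham (log2), with the list median as a red bar; points are spread vertically for legibility and dashed lines mark 2-fold. Choroid plexus markers lie to the right (median 2.46), leptomeningeal (-2.11) and blood cell markers (-3.76) to the left, and the other medians lie between -0.56 and 0.39.

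The calls were then recomputed under other processing. The signals of Slc6a12, Slc6a13, Slc7a3, Slc38a5, Slc17a6, Slc6a6 and Slc17a9 gave at least 2-fold in the reported direction under every scaling, background correction, filter and probe rule that kept them. Under normexp background correction and with no background subtraction, Slc36a2 (nearest to 0 at -0.46), Slc38a4 (-0.42), Slc7a11 (-0.86) and Slc6a3 (0.73) fell short of 2-fold. Slc7a8 fell short with spike-in scaling, at 0.89. Slc6a9 and Slc6a20a passed 2-fold under some alternatives, as far as -1.26 for each, and not under others. Slc7a2 also passed it on the lower side with quantile, median, spike-in and lowess scaling and in the authors' deposited table, and Slc7a6os with median and spike-in scaling.

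**Figure D5:**
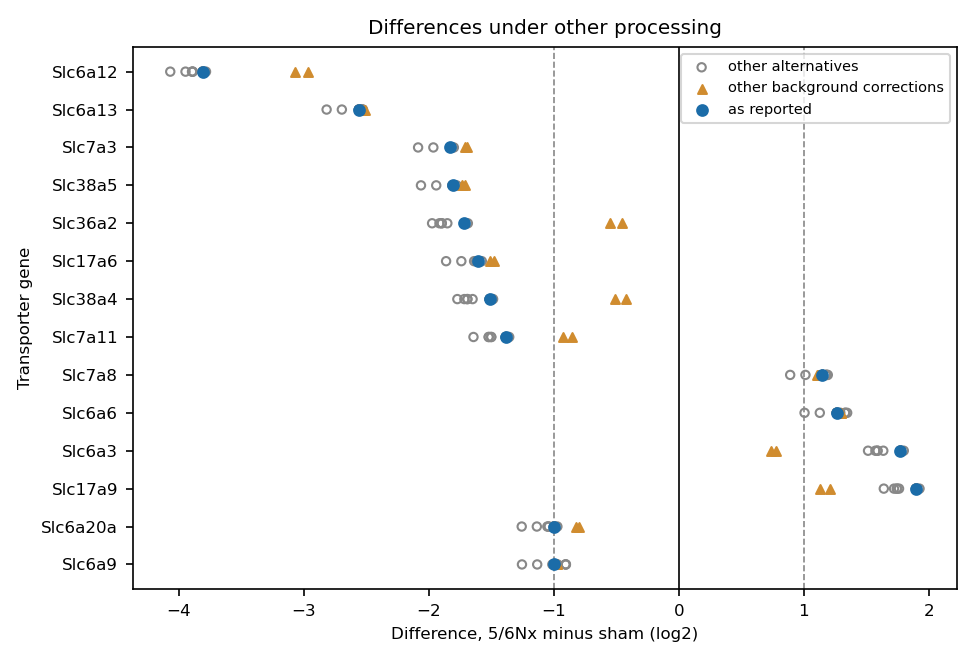
Difference of the 12 transporter genes at 2-fold and of Slc6a20a and Slc6a9, 5/6Nx minus sham (log2), as reported (blue), with both other background corrections (orange triangles) and with the other alternatives (open circles); dashed lines mark 2-fold. The triangles of the dim genes Slc36a2, Slc38a4, Slc7a11 and Slc6a3 lie inside the lines, and every point keeps the side of 0 on which its gene was reported.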

How the data were processed

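Per the labels' protocols, Cy3-labelled cRNA from hippocampal total RNA was read on Agilent arrays in 1 colour. The authors deposited the scanner output of both arrays, with linear intensity values from Feature Extraction 10.7.1.1 per the file headers (9.5.1.1 per the submitters' processing notes), background-subtracted and detrended within each array. The table they deposited for both samples also holds linear intensity, with sorted values in its 2 columns that are equal within 0.0323%, and served as an alternative. Outlier and control spots were left out, log2 values of spots were averaged per probe, and each array was set to its 75th percentile over probes. A gene was represented by its brightest probe and counted as measured if both arrays had it well above background. For a gene above background on 1 array, the fold is a bound against the other array's lowest signal above background. Names came from RefSeq (GRCm38.p6; 27235 probes by accession, 3581 by symbol, 565 by synonym, 24300 kept as in the file), and probe coordinates are on mm9. The rule for named genes took members past 2-fold or above background on 1 array, the member with the highest summed signal and the one with the largest difference of each role group, the classical carriers of glutamate, GABA, glycine, monoamines and acetylcholine, members whose probes differed in direction by at least 1, and the 2 to 4 genes of each other list with the largest difference. Further genes given with values, to account for all members or for their role, fall outside it and were chosen after their values were seen. For several of the other lists the genes that the rule took are not named, or not all of them. The values of 1 measured transporter gene are counted in the totals but not reported here. No test was possible. Members, lists and alternatives were chosen with earlier results of these data known. The steps were checked on simulated arrays and run in Python 3.11.15 and R 4.3.3 with limma 3.58.1 for normexp (offset 50) and a lowess span of 0.3.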

Additional observations from a re-analysis of the deposited data

How the results depend on the processing

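Each group had 1 array, so no array could be left out, and signal over background limits what the dim transporters show. No paired analysis was possible because there was only 1 array in each group. The 35 named and measured transporter genes had 478 values under alternatives, of which 432 moved by less than the error of the spot model and 46 by more. The 12 genes past 2-fold kept their direction in all 161 of their values and their 2-fold size in 152. The 75th percentile over spots was chosen after seeing the data and left 4 transporters higher and 8 lower. The transporters split into 4 higher and 12 lower with scaling to the median and 3 and 12 with spike-in scaling, under which the all-gene median of 0.03 became -0.11 and -0.23. Slc7a6os, which is no transporter, is among the 12 lower in both. Of all 2-fold calls 56.9% were higher as reported, 41.4% with the median and 29.7% with spike-ins. The cause of a moved value was not tested unless the filter or threshold sets it. With spike-in scaling the transporter median was -0.22, and 705 genes of all were higher and 1670 lower. With normexp 5 transporters were lower, with 650 and 530 of all genes higher and lower, and with no background subtraction 5, with 614 and 489. With no filter 2473 and 1759 of all genes were higher and lower. Above the median signal these were 298 and 327, with 2 and 3 transporters. At 1.5-fold 13 members, Slc7a6os among them, were lower, with 3282 and 2496 of all genes, and at 3-fold 2 were higher, with 357 and 263. The other counts stayed within 1.5 times the reported ones.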
